A study of Mus musculus with 4 samples.

Results

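Cck, Cartpt and Prlh encode peptides that act in the hindbrain to reduce feeding, and Cckar, Cckbr and Prlhr encode receptors for 2 of them. These 6 genes, of 32285 in the count tables, were followed by name across the neuronal clusters and cell types of nuclei from the posterior mouse hindbrain that passed the authors' quality control. Their level was taken as UMIs (unique molecular identifiers, which count captured RNA molecules) per 1e6 UMIs of a library (CPM) and as the share of nuclei with at least 1 UMI.

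Single-nucleus RNA sequencing was carried out on 4 libraries, 2 per group, all from mice given clozapine N-oxide (CNO) at 3 mg per kg 1 h before the tissue was taken, without access to food. The mice called AgRP-Gq;POMC-Gi carried the alleles AgRP-IRES-Cre+/-, hM3DGqfl/-, POMC-Dre+/- and hM4DGifl/-. In them, Cre made under Agrp turned on the CNO-activated receptor hM3DGq, and Dre made under Pomc turned on hM4DGi, an inhibitory receptor that CNO also activates, a design meant to activate AgRP neurons and inhibit POMC neurons at once. The controls are called WT in the labels, and by the methods carried both receptor alleles but neither recombinase. Both groups were adult C57BL/6 mice of 12 to 20 weeks and of both sexes. The methods give 2 mice per group, while its source data show 2 mice of each sex in either group. Samples of a condition were pooled by the methods, without a statement of which mice went into which library. The 2 libraries of a group may therefore share animals, and p-values measure only the spread between libraries, which may be partly technical. AgRP and POMC neurons are best known from the hypothalamus, which was not part of the tissue measured here.

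Cholecystokinin, the product of Cck, is released from the gut after a meal and from many neurons, and ends feeding through its A receptor (Cckar), best known on vagal sensory fibres, whereas the B receptor (Cckbr) is the form most widespread in the brain. CART peptides, cut from the Cartpt product, reduce feeding in several brain regions and have no receptor that is generally accepted. Prolactin-releasing peptide, the product of Prlh, is made by noradrenergic neurons of the nucleus tractus solitarii (NTS), the hindbrain station for gut signals, and acts on Prlhr.

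In GRCm38, the build the files use, Cck lies on the minus strand of chr9 (121489824 to 121495694) and Cartpt on the minus strand of chr13 (99898489 to 99901091). Prlh lies on the plus strand of chr1 (90953108 to 90954027), Cckar on the minus strand of chr5 (53697776 to 53707705), Cckbr on the plus strand of chr7 (105425731 to 105470898) and Prlhr on the minus strand of chr19 (60466732 to 60468304). No other annotated gene overlaps any of them.

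Promoter windows from RefSeq (GRCm38.p6, 250 bases before to 50 after the annotated start) were found for 5 of the 6 genes, all but Cckar. The windows of Cck (chr9:121495645-121495944, minus strand) and Cartpt (chr13:99900634-99900933, minus strand) are shown because these genes carry the main results below and both hold letters of the cAMP response element, the site of factors that many activity-dependent genes share. They read 5′ to 3′ along the gene, and capitals mark the motifs found.
Cck: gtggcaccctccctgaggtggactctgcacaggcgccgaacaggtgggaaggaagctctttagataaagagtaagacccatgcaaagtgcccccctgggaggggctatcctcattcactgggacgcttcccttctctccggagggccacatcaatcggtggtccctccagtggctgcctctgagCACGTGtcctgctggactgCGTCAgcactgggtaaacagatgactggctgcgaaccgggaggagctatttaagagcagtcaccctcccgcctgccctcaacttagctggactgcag
Cartpt: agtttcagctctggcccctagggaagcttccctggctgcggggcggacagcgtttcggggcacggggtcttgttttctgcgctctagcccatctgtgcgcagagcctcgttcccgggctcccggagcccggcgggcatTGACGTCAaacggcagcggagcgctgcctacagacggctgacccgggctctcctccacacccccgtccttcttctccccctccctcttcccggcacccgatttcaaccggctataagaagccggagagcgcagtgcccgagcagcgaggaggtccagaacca
The motifs searched on both strands, chosen after the sequences were seen, were the cAMP response element TGACGTCA, its short form TGACG and the E-box CACGTG. The full element contains the short form on each strand, so these matches overlap. In Cck the short form stood on the opposite strand 47 bases before the start, and an E-box 66 bases before it. In Cartpt the full element began 112 bases before the start that RefSeq gives to the window (99900683), which lies 408 bases inside the gene span given above. For the other 4 windows the start is the end of that span. An E-box stood 106 bases before the start of Cckbr, and none of the motifs was found in the windows of Prlh and Prlhr. Of 32851 promoter windows of the same length, 20.8% held the short form, 1.79% the full element and 7.15% the E-box. A match describes these letters and is not a measured binding site.

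The authors' quality control kept 39461 nuclei (9723 to 10051 per library), of which 12539 in 134 clusters were neurons, with 26860073 to 35583732 neuronal UMIs per library. Neurons were identified by their deposited annotation, and Rbfox3, Snap25 and Syt1 were highest in them. Libraries also differed in ways the labels do not give. Neurons made up 25.4, 27.2, 38.0 and 36.5% of nuclei in control replicates 1 and 2 and AgRP-Gq;POMC-Gi replicates 1 and 2. In neurons, Xist, expressed from the inactive X chromosome, stood at 16.2 CPM in AgRP-Gq;POMC-Gi replicate 2 and at 507, 319 and 541 CPM in control replicates 1 and 2 and AgRP-Gq;POMC-Gi replicate 1. The 2 AgRP-Gq;POMC-Gi libraries thus did not hold the same mix of mice, and the spread within this group is not technical alone. Choroid plexus nuclei numbered 2 and 436 in the controls, against 6 and 329. Each pair of libraries shared 19 to 36 cell barcodes. Values of the 4 libraries are given below in the order control replicates 1 and 2, then AgRP-Gq;POMC-Gi replicates 1 and 2, and means ± SD are over the 4 libraries (n = 4) unless stated otherwise. Intervals are exact binomial (Clopper-Pearson) 95% intervals and cover counting error only.

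Of the 12539 neurons, 1025 held at least 1 UMI of Cck, 671 of Cartpt, 28 of Prlh, 725 of Cckbr, 47 of Cckar and 8 of Prlhr. Free RNA in the droplets also gives UMIs to cells that do not express a gene, so the same shares were read in oligodendrocytes, the myelinating glia, where these peptides are not known to be made. Cck was found in 8.17% of neurons (7.70 to 8.67%) at a median depth of 8704 UMIs and in 2.35% of oligodendrocytes (2.13 to 2.59%) at 2460 UMIs. For Cartpt the shares were 5.35% (4.96 to 5.76%) and 1.62% (1.44 to 1.83%), and for Cckbr 5.78% (5.38 to 6.20%) and 0.250% (0.180 to 0.338%). As CPM, which divides by depth, Cck stood at 12.2 ± 3.08 CPM in neurons and 9.44 ± 2.75 CPM in oligodendrocytes. Cartpt stood at 16.0 ± 5.97 and 6.60 ± 1.77 CPM, and Cckbr at 6.85 ± 1.39 and 1.09 ± 0.425 CPM. Within each of the 4 libraries all 3 genes were higher in neurons than in oligodendrocytes. Across libraries the ranges overlapped for Cck (9.67 to 16.5 against 6.64 to 13.1 CPM) and Cartpt (8.64 to 23.2 against 5.30 to 9.16 CPM) and not for Cckbr (5.23 to 8.25 against 0.464 to 1.37 CPM). Free RNA need not scale with depth, so the CPM of oligodendrocytes, at 2460 UMIs, need not equal the background in neurons, at 8704 UMIs.

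Neurons and the other cell types were also compared by how many UMIs a nucleus held. Of neurons with any Cck UMI, 30.8% held 2 or more, against 7.24% of the other nuclei with one. For Cartpt the shares were 42.0% and 7.11%, for Prlh 39.3% and 7.32%, and for Cckbr 15.4% and 7.45%. These shares rise with depth, and the median depth was 8704 UMIs in neurons and 2554 in the other nuclei. With each nucleus thinned to 2000 UMIs, chosen after the data were seen, which leaves out 166 neurons and 8298 other nuclei, the shares were 11.0% (7.83 to 14.9%) and 3.62% (1.82 to 6.38%) for Cck and 34.5% (29.0 to 40.4%) and 3.98% (1.73 to 7.69%) for Cartpt. For Cckbr they were 4.58% (1.86 to 9.20%) and 2.38% (0.0603 to 12.6%), and for Prlh 4 of 10 neurons and 0 of 22 other nuclei, so a difference was not detectable for Cckbr at this depth and the intervals for Prlh overlapped too (12.2 to 73.8% and 0 to 15.4%). Of the 47 neurons with Cckar, 1 held 2 UMIs, and all 8 neurons with Prlhr held 1. The highest count in any neuron was 77 UMIs for Cartpt, 10 for Cck, 8 for Prlh and 6 for Cckbr.

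**Figure D1:**
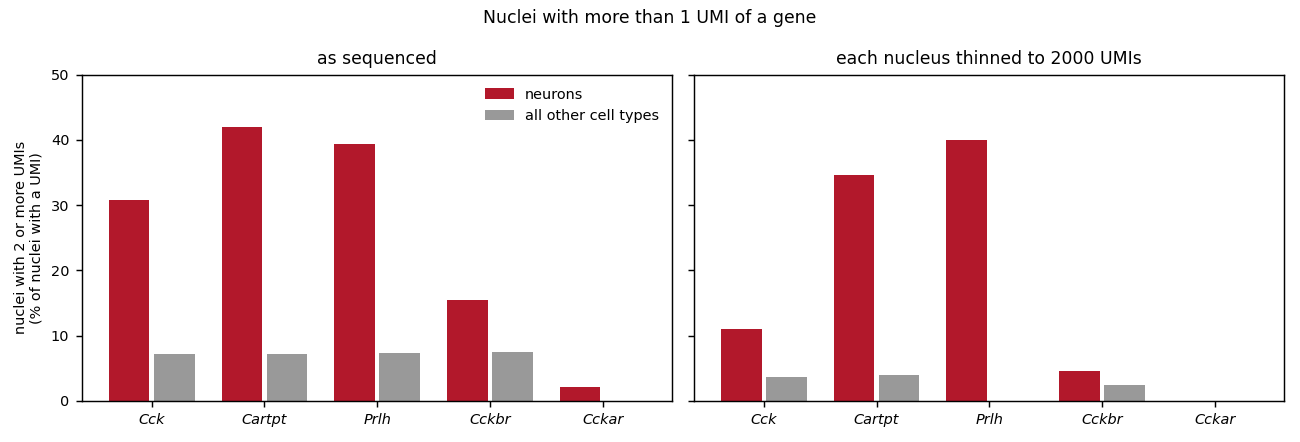
Share of nuclei with at least 2 UMIs among the nuclei with at least 1 UMI of each gene (percent), over the 4 libraries together, as sequenced (left) and with each nucleus thinned to 2000 UMIs (right). Red bars are neurons and grey bars all other cell types. After thinning Cartpt stands at 34.5% against 3.98% and Cck at 11.0% against 3.62%, the bar of Prlh rests on 10 neurons, and Prlhr, with no nucleus at 2 UMIs, is not drawn.

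Cck was spread over many neuronal clusters and was highest in a few glutamatergic ones. Over the 120 clusters in which each library had 5 or more nuclei, its median level was 6.58 CPM, and its 5 highest clusters held 28.6% of the neuronal Cck UMIs. Clusters carry the authors' number and pair of marker genes. In cluster 146 (Rxfp1/Ebf2, 58 nuclei) Cck stood at 142, 325, 180 and 190 CPM (209 ± 79.7), and 35 nuclei (60.3%, 46.6 to 73.0%) held a UMI. Cluster 129 (Bnc2/Ebf2, 67 nuclei) had 120, 140, 333 and 127 CPM (180 ± 102). Cluster 77 (Ankfn1/Tcerg1l, 120 nuclei) had 71.6 to 177 CPM (119 ± 43.7, lowest in AgRP-Gq;POMC-Gi replicate 1) with 67 positive nuclei (55.8%). The libraries of these 3 clusters overlapped, so their order is within the spread. Cluster 38 (Kcnh8/Maf, 183 nuclei) followed with 48.0, 53.4, 67.9 and 87.8 CPM (64.3 ± 17.8), overlapping cluster 77 among the clusters above it. The next, cluster 126 (Tfap2b/Slc39a8), rested on 1 library, with 31.8, 22.3, 24.1 and 127 CPM. Slc17a6, the vesicular glutamate transporter, stood at 100 to 153 CPM on average in clusters 146, 129, 77 and 38, against a median of 56.6 CPM over clusters. Slc32a1, the vesicular GABA and glycine transporter, stood at 2.27 to 6.23 CPM there, against a median of 11.0 CPM. Cluster 126 had the opposite pattern, with 46.7 ± 18.9 CPM of Slc32a1 and 122 ± 20.4 CPM of the glycine transporter Slc6a5. Every library was above the highest oligodendrocyte library (13.1 CPM) in 13 of the 120 clusters. Where a library has few nuclei of a cluster, a single UMI can exceed such a level, here and for the other members below.

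Cartpt was concentrated in a small number of clusters. Cluster 111, which the authors named by Cartpt and Postn, held 38.3% of all neuronal Cartpt UMIs in 87 nuclei, at 819, 1358, 847 and 1320 CPM (1086 ± 293), and 76 nuclei (87.4%, 78.5 to 93.5%) held a UMI. Cluster 149 (Cartpt/Arhgap28, 55 nuclei) followed at 380, 500, 222 and 292 CPM (349 ± 120), with 40 positive nuclei (72.7%). Both stood apart from the clusters below them in every library, and from each other. Cluster 97 (Gfral/Sctr, 101 nuclei) had 163, 161, 144 and 60.0 CPM (132 ± 48.6), and 17 of its nuclei (16.8%) held a UMI. It bears the receptor of the nausea-related hormone GDF15, with Gfral at 316 ± 98.7 CPM. Cluster 76 (the Dbh cluster, 120 nuclei) had 104, 87.2, 171 and 85.8 CPM (112 ± 40.3), with 42 positive nuclei (35.0%), and did not separate from cluster 97. Cluster 114 (Tac1/Tafa2, 82 nuclei) followed, at 37.0, 0, 134 and 79.0 CPM (62.4 ± 57.4).

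The 5 leading Cartpt clusters shared a glutamatergic profile, with Slc17a6 at 132 to 225 CPM. Cluster 149 also had Tac1, which encodes substance P, at 305 ± 89.8 CPM. Over the 120 clusters the median of Cartpt was 2.88 CPM, and 7 clusters were in every library above the highest oligodendrocyte library (9.16 CPM). Over the same clusters, none of the 6 members had a gene whose level, as log2(CPM + 5), reached the Pearson's r of 0.7 set for naming it as alike. Points of that comparison share libraries.

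Prlh was rare and was found most in the Dbh cluster 76. Its 65 neuronal UMIs lay in 28 neurons, and cluster 76 held 24 of these UMIs in 8 of its 120 nuclei (6.67%, 2.92 to 12.7%), at 0, 22.9, 16.3 and 33.8 CPM. That cluster had Dbh, which makes noradrenaline from dopamine, at 75.2 ± 40.8 CPM, Th, the first enzyme of catecholamine synthesis, at 67.2 ± 35.1 CPM, and the calcitonin receptor Calcr at 71.3 ± 50.7 CPM. Cluster 97 was next highest for Dbh, at 31.0 CPM, and had Th at 42.2 CPM. Clusters 82 and 101 follow cluster 76 in Prlh level through 1 nucleus each, with 8 and 4 UMIs. Over all neurons Prlh stood at 0.186, 0.693, 0.281 and 0.879 CPM, and in the other cell types at 0.308, 0.745, 0.453 and 0.898 CPM. The level outside neurons thus tracked that in neurons library by library, and the neuronal CPM was not above it. In the oligodendrocytes no library exceeded 0.970 CPM, and cluster 76 was above this in 3 of 4 libraries. With 13 to 43 nuclei of cluster 76 per library, a single UMI lies above that level. This comparison therefore cannot separate expression from free RNA.

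Cckbr was spread over excitatory and inhibitory clusters, and its 5 leading clusters held 12.3% of its neuronal UMIs. Its median over clusters was 4.17 CPM, and 28 of 120 clusters were in every library above the highest oligodendrocyte library (1.37 CPM). At so low a level a single UMI in each library can suffice for this. Cluster 146, which led for Cck, led for Cckbr too, at 71.1, 60.9, 42.4 and 38.1 CPM (53.1 ± 15.6), with 13 of 58 nuclei positive (22.4%, 12.5 to 35.3%). Cluster 165 (Hcrtr2/L3mbtl4, 45 nuclei) had 22.1, 43.7, 0 and 73.6 CPM, cluster 162 (Chrdl1/Kcnh8) 31.8, 0, 21.9 and 50.7 CPM, and cluster 129 18.4, 70.1, 0 and 9.09 CPM. Each of these 3 overlapped cluster 146. Cluster 46 (Col18a1/Gpc3) rested on more nuclei, 38 of 161 (23.6%, 17.3 to 30.9%), at 24.3, 25.8, 9.13 and 27.0 CPM. Clusters 165, 162 and 46 were inhibitory, with Slc6a5 at 150 to 222 CPM and Slc32a1 at 50.2 to 71.8 CPM, whereas 146 and 129 were glutamatergic. Cckbr was thus detected in neurons of both kinds.

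Cckar and Prlhr were at the limit of detection. Cckar UMIs lay in 8, 11, 16 and 12 neurons (0.324, 0.402, 0.433 and 0.330% of neurons), against 5 of 26922 other nuclei. Cluster 116 (Prph/Slc5a7), a cholinergic cluster with Chat at 164 ± 33.9 CPM, held 7 of these neurons among its 82 nuclei (8.54%, 3.50 to 16.8%) at a median depth of 14832.5 UMIs. It ranked behind clusters 160 and 72, where 3 nuclei each held 1 UMI. Prlhr UMIs lay in 4, 2, 2 and 0 neurons. The 0 of 3637 neurons in AgRP-Gq;POMC-Gi replicate 2 allows up to 0.0825% of neurons to hold a UMI, taking 3 nuclei as the limit (exact upper bound 0.101%), and sets no limit on expression. Cluster 97 held 2 of the 8, both from control replicate 1. Other levels of Prlhr were not detectable at this depth.

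**Figure D2:**
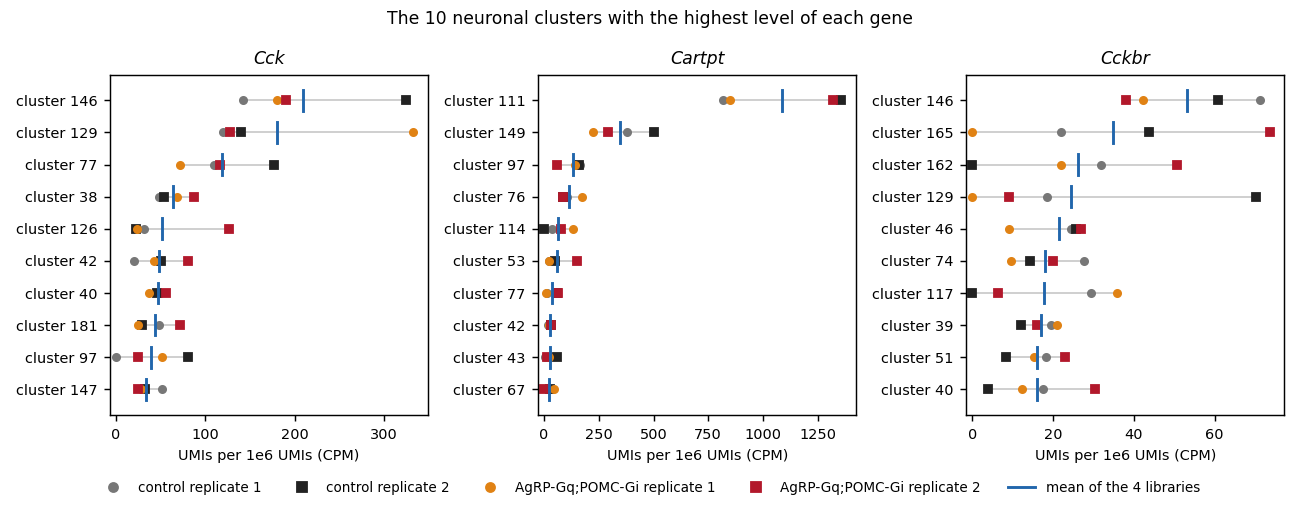
Level in CPM of Cck, Cartpt and Cckbr in the 10 neuronal clusters with the highest mean of each gene, with clusters given by the authors' number. Points are libraries, coloured by library as in the key, and blue bars are means of 4. The clusters of Cck overlap their neighbours (146 and 129 at 209 and 180 CPM), whereas cluster 111 of Cartpt lies above all others in every library.

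The clusters that the study named for Th, Dbh, Gfral and Gcg differed in part in the members they bore. The Dbh and Gfral clusters both held Cartpt. The Gfral cluster 97 held Cck at 0, 80.5, 51.9 and 24.7 CPM beside the Cartpt given above, and had no nucleus of 101 with Cckbr or Cckar. The Dbh cluster 76 held Cartpt and Prlh, with Cck at 7.43 ± 3.37 CPM, which is not above the CPM of oligodendrocytes. In cluster 63 (Ebf2/Th, 139 nuclei) Cck stood at 15.7, 30.0, 0 and 31.7 CPM and Cartpt at 2.40 ± 3.54 CPM, with no Prlh UMI. Th was highest in cluster 63, at 107 CPM, and stood at 67.0 CPM in cluster 146, which led for Cck and Cckbr. The paper counts both among its Th-positive clusters. In the Gcg/Reln cluster (89 nuclei), whose Gcg encodes the precursor of the satiety peptide GLP-1, Cck stood at 6.51 ± 7.45 CPM and Cartpt at 10.5 ± 7.82 CPM, and for both the libraries lay on either side of the oligodendrocyte range. No Prlh UMI was found there.

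Few neurons held UMIs of 2 members. Cck and Cartpt were found together in 96 neurons (11, 16, 23 and 46 per library), which is 9.37% of neurons with Cck and 14.3% of those with Cartpt, and 17 of the 96 were in cluster 111. There Cck stood at 33.3 ± 19.9 CPM. Cck and Cckbr were found together in 81 neurons, 7.90% of those with Cck and 11.2% of those with Cckbr, of which 9 were in cluster 146. Of the 28 neurons with Prlh, 6 also held Cartpt (21.4%), and 4 of the 6 were in cluster 76. Free RNA adds to each of these counts, and its share in them was not tested.

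Outside neurons, Cckbr was present in ependymal cells, the ciliated cells that line the ventricle. Its level there was 35.1, 29.9, 33.0 and 21.7 CPM (29.9 ± 5.87), and 25 of 314 nuclei (7.96%, 5.22 to 11.5%) held a UMI at a median depth of 2720.5 UMIs. Every ependymal library was above every neuronal library (5.23 to 8.25 CPM) and every oligodendrocyte library. In endothelial, mural and Tmem119-positive immune nuclei no Cckbr UMI was found. Taking 3 nuclei as the limit, this allows up to 0.380% of 789, 0.372% of 806 and 0.310% of 969 nuclei to hold a UMI (exact upper bounds 0.466, 0.457 and 0.380%), and at the depth of these nuclei it sets no limit on expression. After thinning each nucleus to 800 UMIs, 3.18% of ependymal nuclei and 0.487% of neurons held Cckbr. Cck overlapped between cell types, from 6.17 ± 2.54 CPM in oligodendrocyte precursors to 18.6 ± 11.0 CPM in endothelial nuclei, and neurons lay within that range of means. The endothelial mean rested on 21 UMIs in 20 of 789 nuclei, at a median depth of 1460 UMIs. Its highest library, AgRP-Gq;POMC-Gi replicate 1, had 34.9 CPM from 6 UMIs. Cck was in 2.53% of endothelial nuclei and 8.17% of neurons, and after thinning to 800 UMIs in 1.14% and 1.23%. Cartpt in neurons likewise overlapped other types between libraries, such as 12.6 ± 4.63 CPM in endothelial and 11.0 ± 8.93 CPM in ependymal nuclei. Choroid plexus levels are not read because control replicate 1 gave 2 nuclei.

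**Figure D3:**
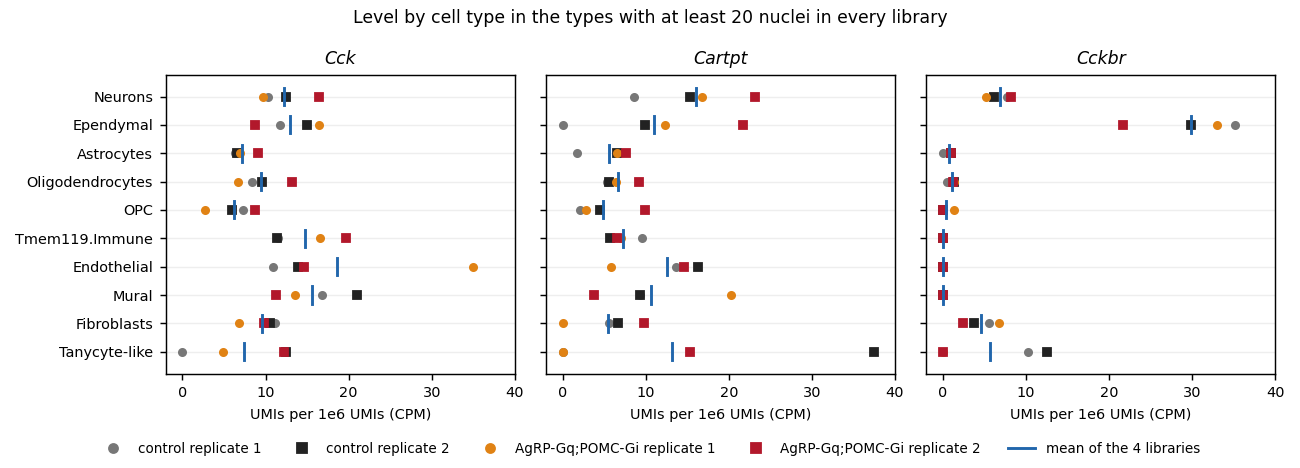
Level in CPM of Cck, Cartpt and Cckbr in each cell type with at least 20 nuclei in every library. Points are libraries and blue bars means of 4. Cckbr in ependymal cells (21.7 to 35.1 CPM) is above every library of every other type drawn, whereas Cck and Cartpt overlap between neurons and several other types.

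The comparison of AgRP-Gq;POMC-Gi with control mice asks whether these genes respond in the hindbrain within 1 h of combined AgRP neuron activation and POMC neuron inhibition. Over all neurons, Cartpt stood at 8.64, 15.4, 16.8 and 23.2 CPM, with a UMI in 3.97, 4.93, 5.28 and 6.68% of neurons. Both AgRP-Gq;POMC-Gi libraries were above both control libraries, as was so for 10.4% of the 12115 genes tested. The edgeR quasi-likelihood test gave a log2 fold change of 0.79 (SE 0.25, adjusted p = 0.810, unadjusted p = 0.0174, 2 libraries per group), which did not pass. Without control replicate 2 it was 1.26 with an adjusted p of 0.0111 in edgeR, where the remaining control library is taken to vary like the other group. It was 0.43 without control replicate 1, and 0.95 and 0.60 without AgRP-Gq;POMC-Gi replicates 1 and 2. Cartpt in the other cell types moved with it, at 4.70, 6.05, 6.21 and 8.76 CPM, and in oligodendrocytes at 5.30, 5.53, 6.43 and 9.16 CPM. The share of neurons from the 5 leading Cartpt clusters was also higher in both AgRP-Gq;POMC-Gi libraries, at 2.31, 3.03, 4.49 and 3.82%. Unlike Cartpt, it was higher in replicate 1 of that group than in replicate 2. With every cluster given the same weight in each library, an alternative added after the data were seen, the ratio of AgRP-Gq;POMC-Gi to control fell from 1.66 to 1.06 and the groups overlapped.

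Cck and Cckbr overlapped between the groups. Cck stood at 10.3, 12.5, 9.67 and 16.5 CPM in neurons (log2 fold change 0.25, SE 0.22, edgeR adjusted p = 0.826), with its highest value in AgRP-Gq;POMC-Gi replicate 2, and the estimate was -0.12 without that library. Cckbr stood at 7.74, 6.20, 5.23 and 8.25 CPM (log2 fold change 0.00185, SE 0.21, edgeR adjusted p = 0.999). The standard errors leave room for changes of this size in either direction, so equal levels are not shown. Prlh, Cckar and Prlhr had UMIs in less than 5% of neurons and were not tested. Their neuronal UMIs numbered 5, 19, 10 and 31 for Prlh, 8, 11, 16 and 13 for Cckar, and 4, 2, 2 and 0 for Prlhr. Over all genes edgeR called 0 of 12115 (0%) at an adjusted p under 0.05, 667 had an unadjusted p under 0.05, and DESeq2 called 12 of 9766. Without AgRP-Gq;POMC-Gi replicate 2, the library low in Xist, edgeR called 2017, and 29 without replicate 1 of that group, 3 without control replicate 1 and 17 without control replicate 2.

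**Figure D4:**
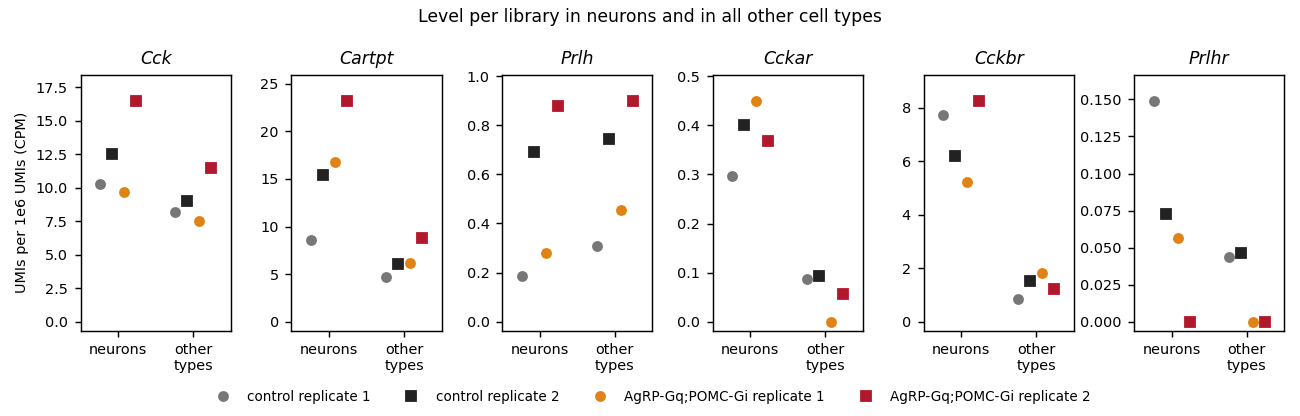
Level in CPM of each member in neurons and in all other cell types, 1 point per library, with a separate linear scale for each gene. Cartpt in neurons separates the groups (8.64 and 15.4 against 16.8 and 23.2 CPM) and does so in the other cell types too, and Prlh in the other types follows its neuronal level.

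No member passed the test between groups in any neuronal cluster. A member could be tested in 143 pairs of gene and cluster (Cck in 55 clusters, Cckbr in 51, Cartpt in 34, Cckar in 2 and Prlh in 1), and edgeR called 0 of them after adjustment over all 1396489 pairs, where 0.0279% of all pairs were called. Of the 143, 9 had an unadjusted p under 0.05 (6.29%, against 4.52% of all pairs), and DESeq2 called 0 with 1 such p. Log2 fold changes of Cartpt were above 0 in 23 of 34 clusters (median 0.46), those of Cck in 20 of 55 (median -0.26) and those of Cckbr in 22 of 51 (median -0.11). These directions rested on single libraries. Without AgRP-Gq;POMC-Gi replicate 2, Cartpt was above 0 in 13 of 32 clusters (median -0.32). Without control replicate 2, Cck was above 0 in 30 of 55 (median 0.22), and Cckbr was above 0 in 28 of 51 without either control library (medians 0.07 and 0.10). In its leading cluster 111 Cartpt had a log2 fold change of 0.10 (SE 0.23), and in cluster 149 of -0.42 (SE 0.36). For Cck the estimates were -0.13 (SE 0.44) in cluster 146 and -0.45 (SE 0.31) in cluster 77, and for Prlh 0.88 (SE 0.76) in cluster 76. The lowest p belonged to Cartpt in cluster 114 (log2 fold change 2.46, SE 0.63, edgeR adjusted p = 0.384), where control replicate 2 had no UMI. It passed without AgRP-Gq;POMC-Gi replicate 2 (2.76, edgeR adjusted p = 0.0152, where 0.0727% of all pairs were called), and Cartpt in cluster 53 (Gal/Dkk2) passed without AgRP-Gq;POMC-Gi replicate 1 (2.16, edgeR adjusted p = 0.0304, where 0.0697% were). In cluster 53, 1 nucleus held 41 of the 111 Cartpt UMIs.

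Neurons that carried a member were then compared between groups on all their other genes. For Cartpt these were 98, 135, 195 and 243 neurons, and edgeR called 8 of 12231 genes (0.0654%), 7 of them higher in AgRP-Gq;POMC-Gi mice, with 817 at an unadjusted p under 0.05 and 5 called by DESeq2. Among the 5 with the lowest p was 1700016P03Rik, a transcript that hosts activity-regulated microRNAs and one of 10 immediate early genes of the study's methods. It stood at 27.8, 35.1, 90.7 and 71.1 CPM, with UMIs in 19.4, 17.0, 25.1 and 21.0% of these neurons (19, 23, 49 and 51; log2 fold change 1.42, SE 0.21, edgeR adjusted p = 0.00622). Both AgRP-Gq;POMC-Gi libraries were above both controls, as was so for 13.2% of the genes tested in this set. The call was kept in all 12 alternatives run, with log2 fold changes from 1.18 to 1.71. Fits without the gene filter, with the replicate block or with 1 library left out called more genes in this set than the main fit. A call kept in those fits therefore says less. These included the set without cluster 111 (1.44, edgeR adjusted p = 0.00835) and without cluster 76 (1.63, edgeR adjusted p = 0.0108). Over all neurons the gene stood at 22.2, 18.6, 25.3 and 32.8 CPM (log2 fold change 0.56, edgeR adjusted p = 0.810), and in oligodendrocytes at 1.59 to 2.26 CPM. Cluster 76 held 24 of the 142 Cartpt neurons with this transcript. The set is chosen by a Cartpt UMI, and 389 of its 671 neurons held 1, where free RNA counts too. The clusters that gave these neurons differed in share between libraries. No alternative held that mix equal, so its part in the calls was not tested.

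Of the 10 immediate early genes, 9 could be tested in the neurons with Cartpt, and 8 of these had a log2 fold change above 0 (median 0.76, against 0.00097 over all genes tested), of which 1700016P03Rik alone passed. The study picked the 10 from a longer list and does not state whether these libraries entered the choice. Their median is therefore not independent of that choice. Without control replicate 1, 6 were above 0 and 3 below (median 0.55). Nr4a3, among the 8, was in 5.10, 2.22, 9.74 and 2.88% of these neurons and met the 5% filter mainly through AgRP-Gq;POMC-Gi replicate 1. Fos, the usual marker of recent activity, stood at 3.47, 14.2, 15.0 and 15.3 CPM (log2 fold change 0.78, SE 0.43), with control replicate 2 close to the AgRP-Gq;POMC-Gi libraries. Gem, which encodes a small GTPase, stood at 15.6, 10.5, 22.9 and 28.5 CPM (1.06, SE 0.31, edgeR adjusted p = 0.420). The nuclear receptor gene Nr4a1 stood at 20.0, 15.0, 28.9 and 32.6 CPM (0.89, SE 0.28) and the growth regulator Btg1 at 17.4, 25.4, 34.9 and 35.4 CPM (0.76, SE 0.26). For Gem, Nr4a1, Btg1 and, narrowly, Fos both AgRP-Gq;POMC-Gi libraries were above both controls, and none of the 4 passed the adjustment. The share of these neurons with Gem overlapped between groups, at 7.14, 9.63, 7.18 and 7.41% (7, 13, 14 and 18 neurons). Jun had the only estimate below 0 (-0.32, SE 0.36). In the other sets most tested immediate early genes were above 0 too: 5 of 6 in all neurons (median 0.17), 5 of 6 in neurons with Cck (0.18) and 6 of 7 in neurons with Cckbr (0.10).

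The other 4 genes of lowest p in the neurons with Cartpt were likewise higher in AgRP-Gq;POMC-Gi mice. Adam12, a membrane metalloprotease gene, stood at 3.47, 11.2, 38.9 and 44.6 CPM (log2 fold change 2.51, SE 0.34, edgeR adjusted p = 0.00192). It was detected in 3.06, 5.93, 10.3 and 9.05% of the neurons with Cartpt, and met the 5% filter through the group where it is high. Over all neurons its groups overlapped (18.8, 15.3, 18.6 and 25.6 CPM). Of the 53 Cartpt neurons with Adam12, 12 were in cluster 83, which gave 0, 3, 7 and 8 neurons to the set. Lama2, a laminin gene, stood at 11.3, 3.74, 43.9 and 40.2 CPM (2.58, SE 0.35, edgeR adjusted p = 0.00192). The share of neurons with a Lama2 UMI overlapped between groups, at 7.14, 2.96, 5.64 and 6.58% (7, 4, 11 and 16 neurons), so the CPM rested on few neurons. In the 282 neurons with at least 2 Cartpt UMIs neither passed, with log2 fold changes of 1.48 for Adam12 and 1.20 for Lama2. Without control replicate 1 the log2 fold changes were 1.97 for Adam12 and 3.55 for Lama2, and without control replicate 2 they were 3.61 and 1.93. Lama2 stood at 225 to 253 CPM in oligodendrocytes. Gm20754 stood at 232, 215, 350 and 451 CPM (log2 fold change 0.90, SE 0.16, edgeR adjusted p = 0.0282), and Rarb, a retinoic acid receptor gene, at 78.1, 74.0, 125 and 145 CPM (0.89, SE 0.16, 0.0288). Over all neurons the groups were apart too, at 165, 170, 191 and 194 CPM for Gm20754 and 66.6, 69.2, 103 and 107 CPM for Rarb. Both lost the call without control replicate 2, at a log2 fold change of 0.83 each (edgeR adjusted p = 0.0921 and 0.0652), and with at least 2 Cartpt UMIs (1.04 and 0.93, 0.0931 and 0.379). Gm20754 also lost it without cluster 111 (0.79, edgeR adjusted p = 0.102) and Rarb in DESeq2 (0.89, adjusted p = 0.383).

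The 1 lower gene, named after its values were seen, was the haemoglobin gene Hbb-bs, a product of red blood cells, at 22.6, 71.8, 5.98 and 12.9 CPM (log2 fold change -2.24, SE 0.40, edgeR adjusted p = 0.0299). The groups were apart in the same direction in all neurons (11.1, 18.2, 6.55 and 8.82 CPM) and in oligodendrocytes (35.9, 48.0, 18.2 and 29.6 CPM). Its call was lost without control replicate 2 (-1.18, edgeR adjusted p = 0.548), without cluster 111 (-1.55, 0.135), without cluster 76 (-2.22, 0.0576) and in DESeq2 (-2.27, adjusted p = 1.00).

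Neurons with Cck (193, 229, 242 and 361) differed in 2 of 12240 genes (0.0163%) by edgeR, with 565 at an unadjusted p under 0.05 and 0 called by DESeq2 (76 at an unadjusted p under 0.05). Both were higher in AgRP-Gq;POMC-Gi mice. Cartpt in these neurons stood at 8.23, 13.4, 29.3 and 37.2 CPM (log2 fold change 1.68, SE 0.25, edgeR adjusted p = 0.00715). Both AgRP-Gq;POMC-Gi libraries were above both controls, as for 11.8% of the genes tested in this set. The call was lost when AgRP-Gq;POMC-Gi replicate 1 was left out (1.78, edgeR adjusted p = 0.135), when replicate 2 of that group was left out (1.53, 0.590), in neurons with at least 2 Cck UMIs (0.83, 1.00) and without TMM factors (1.63, 0.0530). Cartpt was also higher in all neurons and in oligodendrocytes of the AgRP-Gq;POMC-Gi libraries, as given above. With 1 AgRP-Gq;POMC-Gi library, that library is taken to vary like the controls. Hsd11b2, which encodes the enzyme that inactivates corticosterone, stood at 0.866, 0.418, 10.3 and 9.24 CPM (log2 fold change 3.88, SE 0.55, edgeR adjusted p = 0.00484). It was detected in 1.04, 0.437, 9.09 and 9.42% of these neurons, so it passed the 5% filter only through the group where it is high. Its call was lost in the first 3 of these settings (edgeR adjusted p = 0.188, 0.590 and 0.994), with log2 fold changes of 3.77, 4.00 and 6.26. The groups were also apart in all neurons (0.596, 0.401, 8.21 and 8.87 CPM) and in oligodendrocytes (0.199, 0.335, 3.27 and 4.63 CPM). Hsd11b2 was called in neurons with Cartpt too (4.41, edgeR adjusted p = 0.0420), where it was in 1.02, 0, 9.23 and 9.05% of neurons. The groups differ in recombinase alleles as well as in receptor activation, so effects of the 2 cannot be told apart here. Neurons with Cckbr (167, 156, 163 and 239) differed in 0 of 12898 genes (0%) by edgeR, with 481 at an unadjusted p under 0.05, and DESeq2 called 0 with 98. Without AgRP-Gq;POMC-Gi replicate 1 or 2 edgeR called 58 and 331. Of the immediate early genes, 6 could be tested in neurons with Cck and 7 in those with Cckbr, and 0 were called or had an unadjusted p under 0.05 by edgeR or DESeq2. In the former 1700016P03Rik stood at 16.5, 20.9, 14.6 and 34.0 CPM (log2 fold change 0.48, SE 0.28), and in the latter at 25.2, 13.6, 25.1 and 29.2 CPM (0.53, SE 0.26). Whether the difference seen in neurons with Cartpt is larger than these was not tested.

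**Figure D5:**
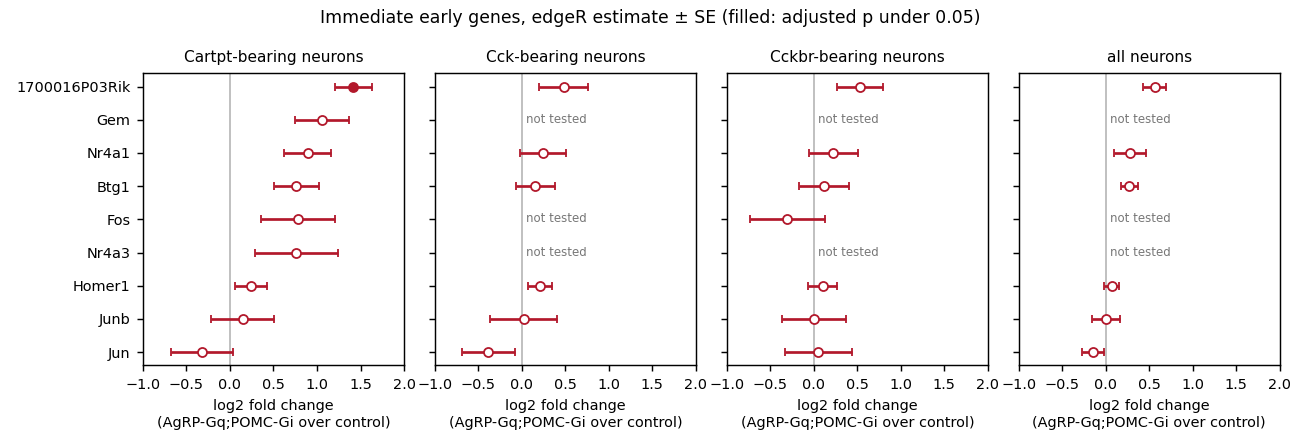
Log2 fold change (AgRP-Gq;POMC-Gi over control, edgeR estimate ± SE, 2 libraries per group) of the immediate early genes that could be tested in neurons with a UMI of Cartpt, Cck or Cckbr and in all neurons. The filled point is an adjusted p under 0.05, reached by 1700016P03Rik in neurons with Cartpt (1.42 ± 0.21).

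The genes around these peptides were read in all neurons from fixed lists. Of 14 genes of peptide processing and storage, such as the convertases Pcsk1 and Pcsk2 and the granins, all were tested and 0 were called by edgeR or DESeq2, with 0 and 2 at an unadjusted p under 0.05. Their estimates were above 0 for 10 and below 0 for 4, with a median log2 fold change of 0.07 against -0.00029 over all genes. The lowest p belonged to Scg3, a granin (log2 fold change 0.17, SE 0.08), and Pcsk2 (0.19, SE 0.09), neither with an unadjusted p under 0.05 in edgeR. Without TMM factors the estimates of this list were above 0 for 7 and below 0 for 7 (median 0.0089, against -0.060 over all genes). Of 15 genes of signalling through Gq, the G protein of both cholecystokinin receptors, 11 were tested and 0 were called by edgeR or DESeq2, with 1 at an unadjusted p under 0.05 in each, 8 above 0 and 3 below and a median of 0.05. Plcb1, a phospholipase that Gq activates, had 0.21 (SE 0.09, edgeR unadjusted p = 0.0455), and the alpha subunit Gna11 had -0.23 (SE 0.14). Without TMM factors the Gq list had 5 above 0 and 6 below (median -0.011, against -0.060 over all genes). It also had 5 above and 6 below without control replicate 2 (median -0.012). Gpr160 and Npffr2, proposed as further receptors of CART and of prolactin-releasing peptide, were in too few neurons to be tested. With AgRP-Gq;POMC-Gi replicate 2 left out, 2 genes of each list passed, where 16.6% of all genes did, and with replicate 1 left out 1 gene of peptide processing did, where 0.239% of all genes did.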

How the data were processed

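Nuclei from the posterior hindbrain were captured and sequenced with the 10x Genomics 3′ method in 4 libraries, 2 per group. The authors made UMI counts per gene and nucleus with Cell Ranger 7.0.0 on GRCm38 (mm10), per the submitters' processing notes, which also name Seurat 4.3.0. The gene annotation and the counting of intronic reads are not given in the sources used here. The authors removed doublets, kept nuclei by UMIs, genes and the percent of mitochondrial UMIs (a column of the deposited table, not used further), and clustered them without immediate early genes, so clusters are partly built from expression and no test between clusters was made. Counts of the deposited matrices were used for nuclei marked as passing quality control, with the deposited cell types and cluster names.

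Levels are CPM, counts divided by the summed counts of the same nuclei in a library and multiplied by 1e6. Between groups, counts were summed per library and tested with edgeR 4.0.16 (limma 3.58.1, R 4.3.3), with trimmed mean of M-values (TMM) factors and the quasi-likelihood test, on genes detected in 5% or more of the nuclei, with Benjamini-Hochberg adjustment. The mixed model over nuclei of the study's methods was not used here. Fold changes are AgRP-Gq;POMC-Gi over control. Clusters needed 5 nuclei in each library. Neurons that carry a member had at least 1 of its UMIs, and sets of at least 20 neurons in each library were tested without that member. The tests were tried on simulated counts. A 4-fold change was called for 18.2% of changed genes in cluster 146, 36.5% in cluster 111 and 53.5% in cluster 77. In the sets of neurons with a member it was called for 91 to 98%. In all neurons a 2-fold change was called for 100%. DESeq2 1.42.0, no TMM factors, no filter, filterByExpr, a replicate block, thinned counts and leaving out each library were alternatives. Other values were computed in Python 3.11.15 (numpy 2.4.6, pandas 2.3.3, scipy 1.17.1), and figures with matplotlib 3.10.9. No sample or column was left unmapped.

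All 6 members are reported, with the 5 highest clusters of each, 4 clusters named by the study, fixed companion genes and lists, and at most 5 called genes by lowest p for each set of neurons with a member. Genes with a like pattern were to be named from r = 0.7. The members and lists were chosen with earlier results of these data known.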

Additional observations from a re-analysis of the deposited data

How the results depend on the processing

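Among 201 alternatives run on 34 results, 151 kept the direction and the side of the threshold or stayed within the spread, 3 lost the call, 11 gained one, 6 reversed and 30 moved. In neurons, leaving out 1 library at a time gave log2 fold changes of -0.12 to 0.54 for Cck, 0.43 to 1.26 for Cartpt and -0.30 to 0.25 for Cckbr. Cckbr also reversed without TMM factors (-0.050) and in DESeq2 (-0.00153), both far inside its standard error. Leaving out 1 library gave 0 to 1 called member pairs in clusters, 0 to 2 called genes of peptide processing and 0 to 2 of Gq signalling. Over all genes in neurons, 0.0248 to 16.6% were called in these fits, and the 2 and 2 are from the fit without AgRP-Gq;POMC-Gi replicate 2, which called 16.6%. Over all pairs 0.0441 to 0.0748% were called. Neurons with Cck had 1 called gene without TMM factors, 0 in DESeq2, 44 with no filter on genes, 0 with at least 2 UMIs, and 0 to 19 with 1 library left out. Neurons with Cartpt had 5 in DESeq2, 76 with no filter and 32 to 157 with 1 library left out, and neurons with Cckbr 22 with no filter and 0 to 331. In neurons with Cartpt the counts were 68 and 32 without control replicates 1 and 2, and 32 and 157 without AgRP-Gq;POMC-Gi replicates 1 and 2. In neurons with Cck they were 12, 19, 2 and 0 in the same order, and in neurons with Cckbr 0, 0, 58 and 331. The cause of these changes was not tested.

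The labels pair the libraries by number only, with 2 pairs and a correlation of 0.183 between the deviations of same-numbered libraries over 12115 genes. Choroid plexus nuclei went with the number, at 2 and 6 in replicates 1 and 436 and 329 in replicates 2. With the replicate number as a block, Cartpt in neurons had a log2 fold change of 0.82 and an edgeR adjusted p of 1.07e-04 among 169 called genes, Cckbr had -0.011, and 32, 107 and 8 genes were called in neurons with Cck, Cartpt and Cckbr.

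Of the 5 leading clusters of each gene, 3 stayed for Cck over all neuronal clusters and 3 for Cckbr by thinned share. For the rare genes fewer stayed: for Prlh 2 by thinned share, 3 by pooled CPM and 3 to 5 with 1 library left out, for Cckar 1, 3 and 3 to 5, and for Prlhr 2 by thinned share and 3 to 5. The ratio of neurons to other cell types, as a share after thinning to 800 UMIs, was 1.44 for Cck, 1.97 for Cartpt, 1.37 for Prlh and 3.22 for Cckar, against CPM ratios of 1.35, 2.49, 0.848 and 6.40, and 4.50 to 8.17 for Cckar with 1 library left out. With 2 libraries per group, a member in a small cluster passes only if its change is large, and levels near 1 UMI per library were not read as differences.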
